A study of Homo sapiens with 3 samples.

Results

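The genes described here are the core of the Notch pathway in AsPC-1 cells: receptors (NOTCH1, NOTCH2), Jagged ligands (JAG1, JAG2), Mastermind-like coactivators (MAML1, MAML2, MAML3), the DNA-binding factor RBPJ and the target gene HES1. They were chosen by gene symbol from a list of 10 names, and 9 of the 16463 genes in the deposited table carried such a name. NOTCH3, the remaining name, was not analysed here. AsPC-1 is an established human pancreatic adenocarcinoma line, given the genotype WT in the labels. The cells were transfected for 24 h with 200 nM of si#1 or si#2, siRNAs against the long non-coding RNA LINC00941, or with siNC, a non-specific control siRNA. The comparison asks which transcripts changed when LINC00941 was knocked down, and total RNA was sequenced once per condition, so that no spread between replicates can be given. All 3 libraries received an siRNA, and untransfected cells were not analysed here.

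In Notch signaling, a ligand on one cell binds a receptor on its neighbour, the receptor is cut, and its intracellular domain moves to the nucleus. There it binds RBPJ, a DNA-binding protein that otherwise recruits corepressors, and a Mastermind-like protein docks on the joint surface and brings in the histone acetyltransferases EP300 and CREBBP. HES1, a transcriptional repressor, is the classical gene switched on in this way, and in the pancreas it is known for holding progenitors back from endocrine differentiation and for its reappearance in tumors of duct-like cells.

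The knockdown was seen in both siRNA libraries. LINC00941 had 214 reads with si#1 and 273 with si#2, against 1551 with siNC, which is a log2 fold change of -2.89 and -2.56. The libraries held 92510692 reads with si#1, 90867405 with si#2 and 88690997 with siNC over the listed genes. Of the epithelial markers, 7 of 7 had values, with summed levels of 7309 TPM with si#1, 11146 TPM with si#2 and 9406 TPM with siNC. TPM is a level scaled to the same total in each library and corrected for transcript length. Markers of endothelial cells (1 of 4 with values, at most 0.048 TPM), leukocytes (2 of 5, summed 1.93 to 4.07 TPM) and pancreatic acinar and islet cells (0 of 5) were low or had no value. Of the fibroblast markers 3 of 5 had values, and LUM made up nearly all of their level, with 130 TPM with si#1, 132 TPM with si#2 and 168 TPM with siNC.

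MAML2 was the Notch gene with a clear change. It was at least 2-fold lower with both siRNAs, at 40.9% of the siNC level with si#1 and 38.8% with si#2. MAML3 also passed 2-fold with both siRNAs, but on 32 reads or fewer in each library. The other 7 genes stayed under 2-fold with either siRNA, and none was 2-fold higher. For log2 fold changes, read counts plus 1 were taken to the log2 scale, quantile normalization was run over the listed genes, and the siNC value was subtracted, and a gene was called when it passed 2-fold.

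Over all listed genes, 12.0% passed 2-fold in either direction with si#1 and 12.7% with si#2. With both siRNAs, 3.51% were 2-fold lower and 2.53% were 2-fold higher. Among the Notch genes the counts were 2 of 9 lower and 0 of 9 higher. Averaged over the libraries, 8 of them had at least 100 reads, and 1 of these was lower, beside 2.21% of all genes at that depth. Below siNC at any size with both siRNAs were 6 of the 9, namely NOTCH2, JAG1, all MAML genes and RBPJ, against 34.8% of all genes. All 6 have transcripts of at least 5000 bases, and 58.3% of genes of that length lay below siNC with both. The median log2 fold change of the 9 genes was -0.30 with si#1 and -0.26 with si#2, and that of all genes was 0.03 and 0.02. The single siNC library served both comparisons, so that an error in it would enter each of them.

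**Figure D1:**
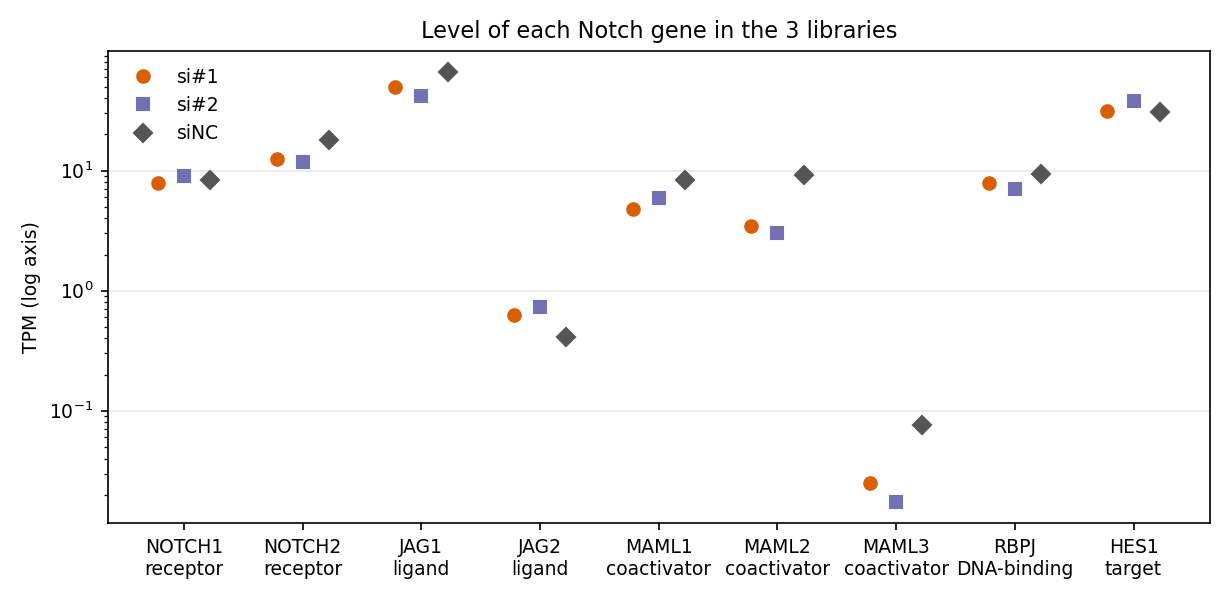
Level of each Notch gene in TPM (log axis) in the si#1, si#2 and siNC libraries, 1 point for each library, with no error bar because there was 1 library for each condition. MAML2 lies at 3.42 and 3.05 TPM with si#1 and si#2, well under its siNC point of 9.26 TPM, while the 3 points of RBPJ lie between 7.03 and 9.38 TPM.

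The levels ran from 66.0 TPM (JAG1 with siNC) down to 0.017 TPM (MAML3 with si#2). With si#1 and with si#2 the order was JAG1, HES1, NOTCH2, NOTCH1, RBPJ, MAML1, MAML2, JAG2 and MAML3, from high to low. With siNC it was JAG1, HES1, NOTCH2, RBPJ, MAML2, MAML1, NOTCH1, JAG2 and MAML3, so that MAML2 stood above MAML1 and NOTCH1 with siNC and below both with either siRNA. Some neighbours lay closer than their counting error, namely NOTCH1 and RBPJ with si#1 (7.89 and 7.85 TPM), RBPJ and MAML2 with siNC (9.38 and 9.26 TPM) and MAML1 and NOTCH1 with siNC (both 8.29 TPM). In whole cultures a lower share of expressing cells and less RNA per cell cannot be told apart.

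NOTCH1 (chr9:136494433-136546048 in GRCh38) encodes a large single-pass receptor. It had 5158 reads with si#1 and 6043 with si#2, against 4798 with siNC. The log2 fold change was 0.09 with si#1 (95% counting interval 0.03 to 0.15) and 0.37 with si#2 (0.31 to 0.42), under 2-fold with both. The difference between si#1 and si#2 was -0.28 (-0.33 to -0.23), larger than counting error. Counting intervals, here and below, were computed by the exact Clopper-Pearson method from the pair of read counts and cover counting error only. In TPM, NOTCH1 had 7.89 with si#1, 8.98 with si#2 and 8.29 with siNC, so that with si#1 the level was a little below siNC on this scale and a little above it in normalized reads. A long non-coding RNA gene beside NOTCH1, NALT1, had 16 reads with si#1, 9 with si#2 and 13 with siNC, which is too few to show a difference.

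NOTCH2 (chr1:119911553-120069662) encodes a receptor of the same build and was the more abundant of both in all libraries. It had 9756 reads with si#1 and 9479 with si#2, against 12311 with siNC. Both siRNA libraries lay under the siNC library, by -0.37 (-0.41 to -0.33) for si#1 and -0.33 (-0.37 to -0.29) for si#2 on the log2 scale. The ratio of NOTCH2 to NOTCH1 in TPM was 1.59 with si#1, 1.32 with si#2 and 2.16 with siNC. NOTCH2NLA, a partial copy of NOTCH2 with nearly the same sequence, had 1793 reads with si#1, 1768 with si#2 and 1579 with siNC, so that reads of the shared stretch may have been split between both genes. Its log2 fold changes, 0.12 and 0.16, were of the opposite sign to those of NOTCH2.

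JAG1 (chr20:10637684-10673999), a canonical Notch ligand, was the most abundant Notch gene in each library. It had 20080 reads with si#1 and 17317 with si#2, against 23707 with siNC. The level was lower with both siRNAs, at 49.5 TPM with si#1, 41.5 TPM with si#2 and 66.0 TPM with siNC. The log2 fold change was -0.30 (-0.33 to -0.27) for si#1 and -0.44 (-0.47 to -0.42) for si#2, less than the 2-fold used for a call.

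JAG2 (chr14:105140995-105168776), the other Jagged ligand, was over 50 times less abundant than JAG1 and moved the other way. It had 248 reads with si#1 and 300 with si#2, against 145 with siNC. Its log2 fold change was 0.72 (0.42 to 1.03) for si#1 and 0.96 (0.67 to 1.25) for si#2, the highest value among the 9 genes with either siRNA. The si#2 value passed 2-fold when libraries were scaled by TMM, by DESeq2 size factors or by total count (up to 1.02), and the si#1 value did not. On the log2(TPM + 1) scale the values were 0.27 and 0.37. The share of JAG2 in the summed Jagged level was 1.26% with si#1 and 1.74% with si#2, against 0.625% with siNC. The summed level itself was 50.1 TPM with si#1, 42.2 TPM with si#2 and 66.4 TPM with siNC, and was set by JAG1.

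MAML2 (chr11:95976598-96343195) encodes a Mastermind-like coactivator and is also known as the fusion partner in salivary mucoepidermoid carcinoma. It had 1666 reads with si#1 and 1527 with si#2, against 3987 with siNC. Both siRNA libraries were thus close to each other and far from the siNC library. The log2 fold change was -1.29 (-1.37 to -1.21) for si#1 and -1.36 (-1.45 to -1.28) for si#2, and the difference between the siRNAs, 0.07 (-0.03 to 0.18), was within counting error. The values stayed past 2-fold with both siRNAs under 9 other ways of scaling or filtering, between -1.32 and -1.05 for si#1 and between -1.42 and -1.10 for si#2. As the ratio of deposited TPM, a setting added after seeing the data, they were -1.43 and -1.60. Ranked by the smaller of both falls, MAML2 was number 121 of the 12106 genes that averaged at least 100 reads.

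MAML1 (chr5:179732822-179777283) was the other coactivator with many reads. It had 1869 reads with si#1 and 2407 with si#2, against 2883 with siNC. The siRNA libraries differed from each other, with log2 fold changes of -0.67 (-0.76 to -0.59) for si#1 and -0.26 (-0.33 to -0.18) for si#2. The difference between si#1 and si#2 was -0.42 (-0.50 to -0.33), larger than counting error, and no 2-fold call was made with either. MAML2 stood at 0.720 of MAML1 with si#1 and 0.512 with si#2, against 1.12 with siNC in TPM.

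MAML3 (chr4:139716753-140154184) had a very low RNA level. It had 12 reads with si#1 and 9 with si#2, against 32 with siNC, or 0.025 TPM with si#1, 0.017 TPM with si#2 and 0.076 TPM with siNC. The siRNA libraries lay below siNC, but the intervals of the log2 fold change were wide, at -1.29 (-2.39 to -0.30) for si#1 and -1.66 (-2.91 to -0.56) for si#2, and both include changes smaller than 2-fold. On the log2(TPM + 1) scale the values were -0.05 and -0.07, but a level so far under 1 TPM cannot fall 2-fold on that scale. With a pseudocount of 10 the si#1 call was lost as well. MAML3 overlaps MGST2 on the opposite strand, which had 4927 reads with si#1, 4440 with si#2 and 3859 with siNC. The library kit keeps strand, but the sources used here do not say whether the counting used it.

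Summed over MAML1, MAML2 and MAML3, the coactivator level was 8.21 TPM with si#1 and 9.02 TPM with si#2, against 17.6 TPM with siNC, which is 46.6% and 51.2% of siNC. The summed level of NOTCH1 and NOTCH2 was 20.4 TPM with si#1, 20.8 TPM with si#2 and 26.2 TPM with siNC, or 77.9% and 79.4% of siNC. On this scale of deposited TPM the median gene itself lay lower with the siRNAs, at a log2 ratio of -0.10 with si#1 and -0.18 with si#2. The share of MAML2 in the coactivator sum was 41.7% with si#1, 33.8% with si#2 and 52.5% with siNC.

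RBPJ (chr4:26105449-26435131), through which all Notch receptors reach DNA, was close between libraries. It had 3185 reads with si#1 and 2943 with si#2, against 3355 with siNC. The log2 fold change was -0.11 (-0.18 to -0.04) for si#1 and -0.17 (-0.24 to -0.10) for si#2.

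**Figure D2:**
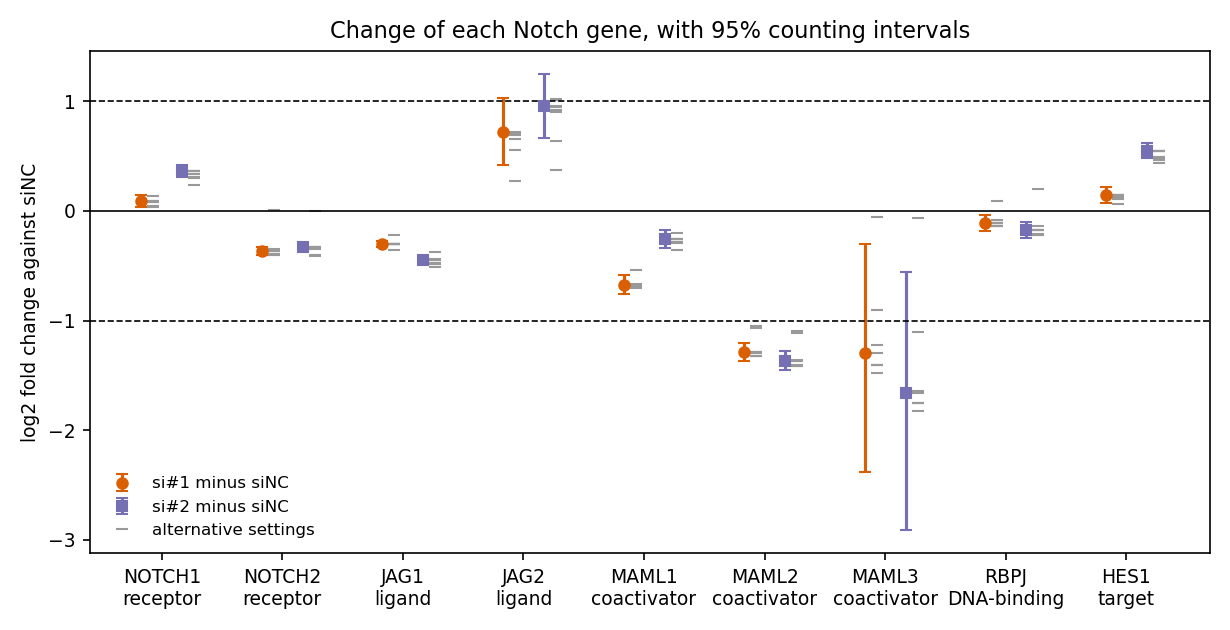
Log2 fold change of each Notch gene against siNC with si#1 and si#2 (large points), with exact 95% counting intervals as bars, grey dashes for the same value under alternative settings, and broken lines at 2-fold. MAML2 is the gene for which points, intervals and dashes all lie under the lower line with both siRNAs, and MAML3 has bars that reach from -2.39 to -0.30 with si#1.

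HES1 (chr3:194136148-194138732), the target gene of the set, was not lower with either siRNA. It had 3355 reads with si#1 and 4218 with si#2, against 2948 with siNC. The log2 fold change was 0.15 (0.08 to 0.22) for si#1 and 0.55 (0.48 to 0.62) for si#2, and the difference between the siRNAs was -0.40 (-0.47 to -0.33), larger than counting error. In TPM, HES1 had 31.2 with si#1, 38.1 with si#2 and 30.9 with siNC, so that with si#1 the level was nearly that of siNC on this scale.

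The promoters of HES1 and MAML2 are shown because HES1 is the target gene of the set, which did not fall, and MAML2 is the coactivator that passed 2-fold on many reads. The reference sequences (RefSeq, GRCh38.p14) run from 250 bases before the start to 50 bases after it, on the strand of the gene. Capitals mark TGGGAA, the core of the RBPJ recognition sequence, which was searched on both strands (as TGGGAA or TTCCCA).
HES1, chr3:194135898-194136197, plus strand: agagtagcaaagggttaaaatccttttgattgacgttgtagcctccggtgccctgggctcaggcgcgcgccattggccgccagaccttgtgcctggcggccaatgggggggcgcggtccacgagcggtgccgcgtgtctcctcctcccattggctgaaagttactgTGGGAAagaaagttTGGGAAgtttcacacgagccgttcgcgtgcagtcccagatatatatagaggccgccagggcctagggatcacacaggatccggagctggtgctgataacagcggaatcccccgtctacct
MAML2, chr11:96343146-96343445, minus strand: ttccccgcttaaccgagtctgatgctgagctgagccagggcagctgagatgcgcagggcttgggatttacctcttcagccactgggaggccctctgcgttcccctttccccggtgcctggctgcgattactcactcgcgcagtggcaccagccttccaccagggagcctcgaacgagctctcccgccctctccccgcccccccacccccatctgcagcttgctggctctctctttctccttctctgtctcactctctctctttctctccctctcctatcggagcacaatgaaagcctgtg
In HES1 the motif stood 84 and 70 bases before the start, 14 bases apart, and in MAML2 it did not occur in this window. RefSeq gives 13 windows for the 9 Notch genes, 5 of them for RBPJ, and 2 windows (that of HES1 and 1 of RBPJ) held the motif, each 2 times. Of all 35116 promoters, 24.0% held it and 3.80% held it at least 2 times. The motif contains GGAA, which is also the core of ETS factor sites, and a match of letters does not show that a factor was bound.

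**Figure D3:**
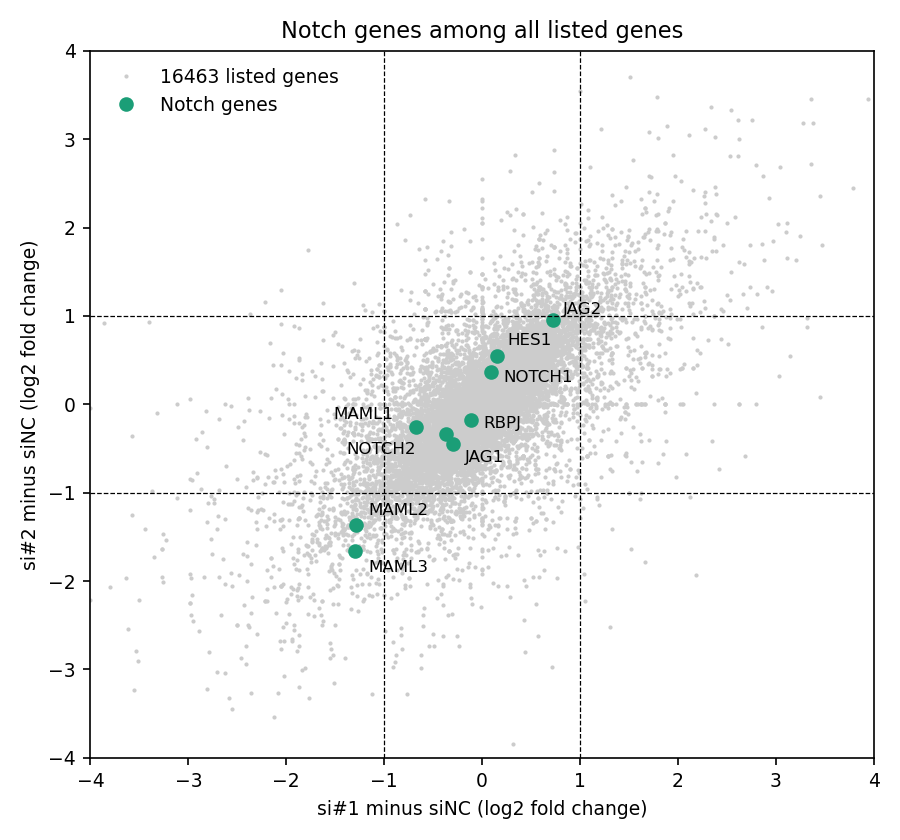
Log2 fold change with si#1 (horizontal axis) against that with si#2 (vertical axis) for the 16463 listed genes (grey) and the Notch genes (green), with broken lines at 2-fold and genes beyond 4 not drawn. MAML2 (-1.29 and -1.36) and MAML3 (-1.29 and -1.66) lie in the lower left corner, and JAG2 (0.72 and 0.96) lies just inside the 2-fold lines at the upper right. Both axes share the siNC library, so that the slope of the cloud is not read as agreement between siRNAs.

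Long transcripts as a class were lower with both siRNAs, and 8 of the 9 Notch genes have transcripts of at least 5000 bases, HES1 being the exception with 1575. The median log2 fold change of all genes was 0.16 with si#1 and 0.19 with si#2 for transcripts of 1000 to 2500 bases, -0.13 and -0.16 for those of 5000 to 7500 bases, and -0.32 and -0.36 for those of at least 7500 bases. NOTCH1 and NOTCH2 belong to the longest class, and JAG1, JAG2, RBPJ and all MAML genes to that of 5000 to 7500 bases, in which 3.10% were 2-fold lower with both siRNAs. Of genes with transcripts of at least 5000 bases, 5.52% were 2-fold lower with both siRNAs, and 58.3% lay below siNC at any size with both. The part of transcript length in the Notch values was not tested gene by gene, but the trend with length and GC content over all genes was fitted and taken off. MAML2 then had -1.07 with si#1 and -1.10 with si#2, still past 2-fold, and JAG1 had -0.22 and -0.37. NOTCH2 had 0.0092 with si#1 and -0.0011 with si#2, so that no difference was left, and RBPJ had the opposite sign, at 0.09 and 0.20. JAG2 stayed above siNC, at 0.55 with si#1 and 0.64 with si#2.

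**Figure D4:**
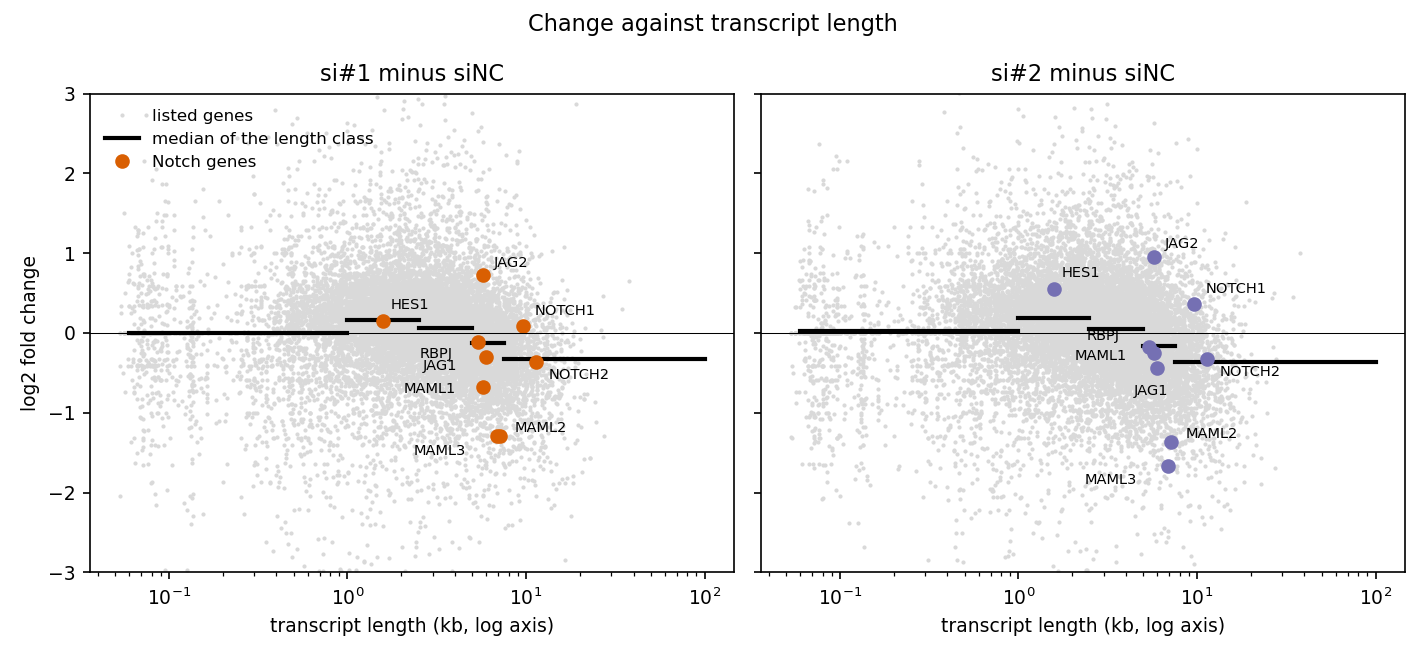
Log2 fold change with si#1 (left) and si#2 (right) against transcript length in kilobases (log axis), with listed genes in grey, the median of each length class as a black bar, the Notch genes as coloured points, and genes beyond 3 not drawn. The black bars go down to -0.32 and -0.36 in the longest class, where NOTCH2 lies on the bar, while MAML2 and MAML3 lie well below the bars.

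The rest of the pathway was followed in 8 lists by role, of which 70 of 82 genes had values. With both siRNAs, 5 were 2-fold lower (GXYLT1, AAK1, SPEN, EP300, CREBBP) and 1 was 2-fold higher (DNER), and 56 stayed under 2-fold with either. Over all genes 3.51% were lower and 2.53% higher, and 5.52% were lower among those with transcripts of at least 5000 bases, to which all 5 lower genes belong. In the class of at least 7500 bases, which holds AAK1, SPEN, EP300 and CREBBP, 9.48% were lower with both siRNAs. The median log2 fold change of the 70 genes was -0.09 with si#1 and 0.02 with si#2. The 5 lower genes all have long transcripts, from 7492 bases (GXYLT1) to 21157 bases (AAK1), and with the length and GC trend taken off 3 of them were still 2-fold lower with both siRNAs, namely SPEN, EP300 and CREBBP.

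The acetyltransferases that Mastermind-like proteins bring to RBPJ were lower in the same libraries as MAML2. EP300 had 1171 reads with si#1 and 1130 with si#2, against 3508 with siNC. Its log2 fold change was -1.61 (-1.71 to -1.51) for si#1 and -1.63 (-1.73 to -1.53) for si#2. CREBBP, its close relative, had 1547 reads with si#1 and 2415 with si#2, against 5453 with siNC. The values were -1.85 (-1.93 to -1.77) and -1.16 (-1.23 to -1.09), so that CREBBP was lower with si#1 than with si#2. KAT2A and KAT2B, acetyltransferases of another family, had log2 fold changes of 0.04 and 0.47 with si#1 and of 0.12 and 0.17 with si#2. Thus 2 of the 4 genes of this list were lower with both siRNAs, beside 3.51% of all genes. Among genes with transcripts of at least 7500 bases, such as EP300 and CREBBP, 9.48% were lower. With the length and GC trend taken off, EP300 had -1.38 with si#1 and -1.43 with si#2. CREBBP then had -1.61 with si#1 and -1.04 with si#2, the latter just past 2-fold.

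Of the corepressors that hold RBPJ targets silent, 1 of the 15 described here was lower and 0 were higher with both siRNAs. Over all genes these shares were 3.51% and 2.53%, and 9.48% were lower among transcripts of at least 7500 bases, such as SPEN. SPEN, which binds RBPJ directly, had 2696 reads with si#1 and 3109 with si#2, against 8569 with siNC. Its log2 fold change was -1.70 (-1.76 to -1.64) for si#1 and -1.43 (-1.49 to -1.37) for si#2. The most abundant members of the list stayed under 2-fold, with values of 0.28 and 0.16 for the deacetylase HDAC1. CTBP1, a corepressor that binds NAD, had -0.27 with si#1 and 0.62 with si#2, on opposite sides of siNC. The list median was -0.10 with si#1 and 0.16 with si#2.

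Receptor maturation and cleavage held 1 gene called with both siRNAs, beside 3.51% of all genes lower and 2.53% higher. GXYLT1, which adds xylose to the O-glucose on the EGF repeats of Notch, had 2889 reads with si#1 and 2027 with si#2, against 5703 with siNC. It stood at 49.9% of siNC with si#1, at the edge of the call, and at 36.1% with si#2. It was the 1 gene called among 9 of maturation and glycosylation, whose most abundant members were POFUT1, the O-fucosyltransferase of Notch (-0.02 and -0.40), and LFNG, a fringe that elongates this fucose (0.59 and 0.39). None of the 8 genes of ADAM and gamma-secretase cleavage passed 2-fold with either siRNA. Over all genes 12.0% passed it with si#1 and 12.7% with si#2. The most abundant cleavage genes were APH1A, a gamma-secretase subunit (0.40 and 0.60), and ADAM17, a metalloprotease (-0.15 and -0.06).

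Among 16 genes of ubiquitination, endocytosis and turnover, 12 lay below siNC with both siRNAs and the median was -0.35 with si#1 and -0.31 with si#2. Beside this, 34.8% of all genes and 58.3% of those with transcripts of at least 5000 bases lay below siNC with both. With both siRNAs, 3.51% of all genes were 2-fold lower and 2.53% higher. AAK1, a kinase of clathrin adaptors that also binds NUMB, was the 1 gene called with both. It had 985 reads with si#1 and 1204 with si#2, against 2898 with siNC, or -1.58 and -1.26. With the length and GC trend taken off, its values were -0.65 and -0.35. MIB2, a ubiquitin ligase of Notch ligands, had 1883 reads with si#1 and 2321 with si#2, against 1114 with siNC. It passed 2-fold with si#2 (1.05) and not with si#1 (0.71), and the pass was lost with the trend taken off (0.36 with si#1 and 0.53 with si#2). NUMBL, a relative of the Notch inhibitor NUMB, passed it with si#1 (49.9% of siNC) and not with si#2 (77.4%). DTX3, with 11 reads with si#1, 3 with si#2 and 2 with siNC, was too low for its si#1 value of 2.04 (-0.16 to 5.25) to be read. ITCH, a ubiquitin ligase of the receptor, and CCNC, the cyclin of the kinase CDK8, were the most abundant of this list, with -0.52 and -0.31 for ITCH and -0.30 and -0.47 for CCNC.

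No gene of the 12 in the list of transcriptional targets was 2-fold lower with either siRNA, and none was called with both. Over all genes 3.51% were lower and 2.53% higher with both. At any size, 3 of the 12 lay below siNC with both siRNAs, 6 lay above and 3 lay on opposite sides. The 3 below were NRARP (-0.70 and -0.45), SOX9 (-0.69 and -0.70) and BHLHE40 (-0.49 and -0.09). Whether each of them answers to Notch in AsPC-1 cells was not tested. HES6, a HES family member known to oppose HES1, had 460 reads with si#1 and 570 with si#2, against 229 with siNC. The log2 fold change was 0.93 (0.69 to 1.16) for si#1 and 1.25 (1.03 to 1.48) for si#2. With the length and GC trend taken off, HES6 had 0.57 and 0.76, under 2-fold with both. HES2 and HEY2, repressors of the same class, also passed 2-fold with si#2, and not with si#1 (0.56 and 0.52). With si#2, HES2 had 1.38 (0.62 to 2.20) on 55 reads against 20 with siNC. HEY2 had 1.24 (0.05 to 2.55) on 21 reads against 9 with siNC, an interval that nearly reaches 0. GFI1, a zinc-finger repressor, had 31 reads with si#1, 4 with si#2 and 3 with siNC, and passed 2-fold with si#1 alone (3.03, interval 1.35 to 5.38). The most abundant targets, CCND1 and MYC, which drive proliferation, had 0.11 and 0.12 for CCND1 and -0.25 and 0.29 for MYC.

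Of the other receptors and canonical ligands, 2 of 4 had values, and both were low. DLL3, a ligand that acts inside the expressing cell, had 34 reads with si#1, 9 with si#2 and 12 with siNC, and passed 2-fold with si#1 alone (1.55, interval 0.56 to 2.63). NOTCH4 had 39 reads with si#1, 35 with si#2 and 35 with siNC, and no difference was detectable at this depth. Among the non-canonical ligands and inhibitors, DNER, a membrane protein known as a Notch ligand of neurons and glia, had 73 reads with si#1 and 29 with si#2, against 5 with siNC. Its log2 fold change was 3.79 (2.51 to 5.46) for si#1 and 2.45 (1.06 to 4.17) for si#2, and 0.40 and 0.16 on the log2(TPM + 1) scale. EGFL7, a secreted antagonist, had 0.30 and 0.53, and DLK2, a membrane inhibitor, had 0.02 and 0.47.

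**Figure D5:**
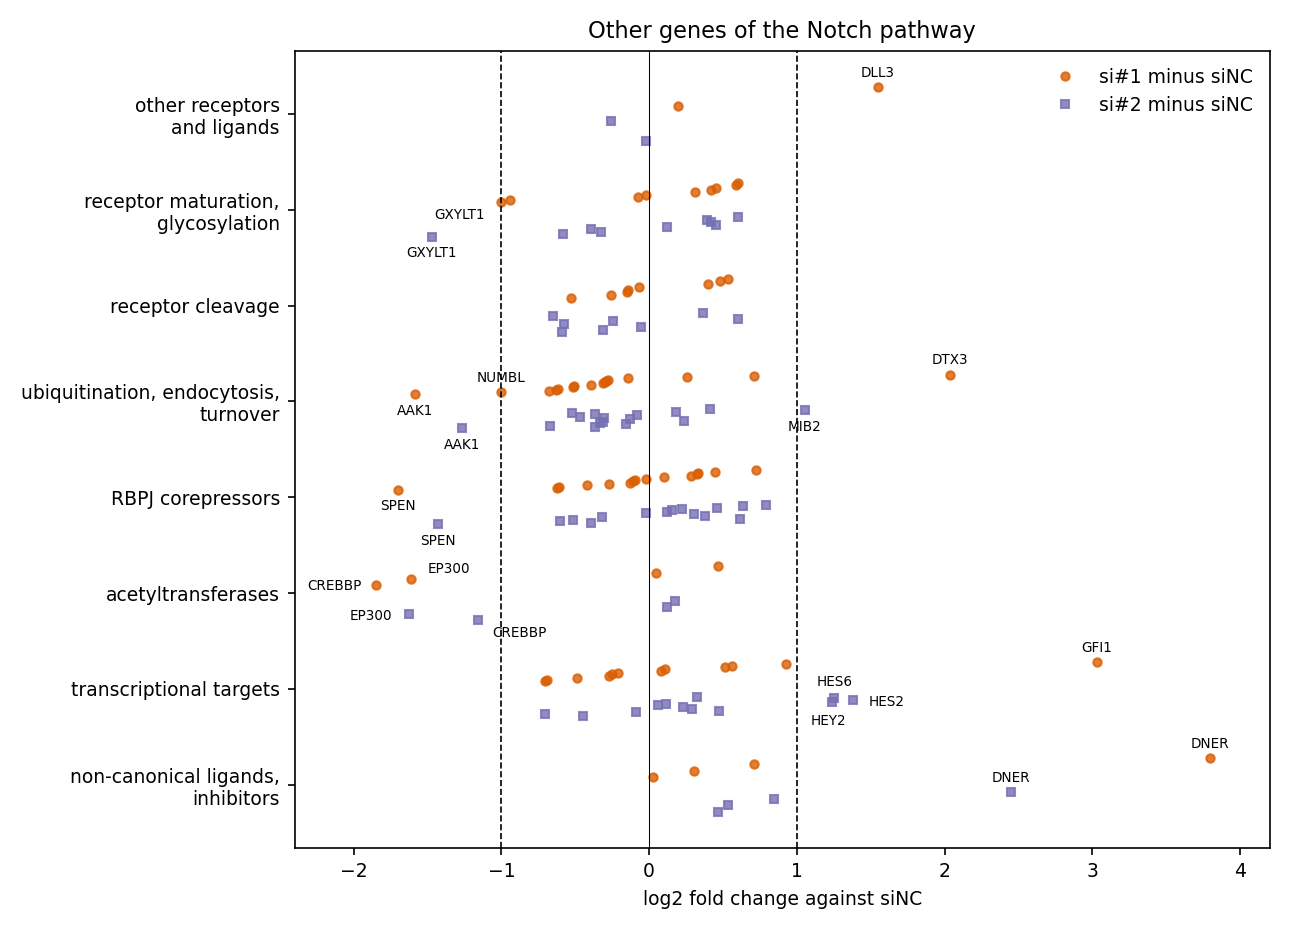
Log2 fold change against siNC of the other genes of the Notch pathway by role, with circles for si#1, squares for si#2, 1 point for each gene and library, names at genes past 2-fold with that siRNA and broken lines at 2-fold. EP300, CREBBP, SPEN, AAK1 and GXYLT1 lie past the lower line with both siRNAs, and DNER lies past the upper line with both.

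The genes whose changes lay nearest to those of the lowest Notch genes were found by distance over the 2 comparisons, among the 12106 genes that averaged at least 100 reads. Nearest to MAML3 were ND3 (-1.31 and -1.66), OAS2 (-1.26 and -1.67) and ZBTB20 (-1.30 and -1.69). Because MAML3 has few reads, the same was done for MAML2, a choice made after its values were seen, and MEF2C (-1.29 and -1.36), MBNL3 (-1.30 and -1.36) and ATP2A2 (-1.30 and -1.39) were nearest. With 2 comparisons that share a control, such nearness describes these libraries only.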

How the data were processed

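The library kit was one for stranded total RNA. According to the study's methods, the authors mapped paired reads with HISAT2 to the GRCh38 genome and took known genes from StringTie, whose versions the sources used here do not give. The deposited table holds read counts and TPM for 16463 genes, with at least 1 read for each gene in every library. The deposited normalized columns are log2 values, which quantile normalization of log2(read count + 1) rebuilt within 4.99997e-09. Deposited columns headed FPKM equal the counts in all 16463 genes and were not used as FPKM, nor were the authors' columns of fold change and volume (scores of the comparison). A second deposited sheet, with 15 per-sample columns, was not used.

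Calls needed a log2 fold change of 1 or more in size, without p-values. Transcript length and GC content came from GENCODE (15270 genes) and positions from RefSeq (16434 matched). The trend fit used a polynomial of degree 3. Other settings were log2(TPM + 1), TMM, DESeq2 size factors, total count, a pseudocount of 10, mean counts of at least 10 or 100, protein-coding genes, a 1.5-fold threshold, and pooled edgeR and DESeq2 tests. Named are the Notch genes, and in each list the genes past 2-fold with either siRNA and the 2 of highest mean TPM. The 3 transcriptional targets below siNC with both siRNAs are named too. The result of 1 gene of the lists is not reported here, and the counts leave it out. The Notch genes and lists were chosen with earlier results of these data known. Software was R 4.3.3, edgeR 4.0.16, DESeq2 1.42.0, Python 3.11.15, numpy 2.4.6, pandas 2.3.3, scipy 1.17.1 and matplotlib 3.10.9.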

Additional observations from a re-analysis of the deposited data

How the results depend on the processing

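No paired analysis was possible because each condition had 1 library. Of 178 values of single Notch genes under other settings, 132 stayed within their counting interval, 46 moved beyond it, and no called value changed sign. Only MAML2 and MAML3 were called, and values of uncalled genes did change sign. NOTCH1 with si#1 went from 0.09 to -0.07 by the ratio of deposited TPM. With the length and GC trend removed, NOTCH2 with si#1 went to 0.0092, and RBPJ went to 0.09 with si#1 and 0.20 with si#2. MAML2 was 2-fold lower with both siRNAs under each setting that gives a fold per siRNA. The Notch genes 2-fold lower with both siRNAs numbered 2. They became 1 (MAML2) on the log2(TPM + 1) scale, with a pseudocount of 10 and at a mean count of at least 100 (where MAML3 has no value). The pooled DESeq2 test, described below, gives no fold per siRNA and has no adjusted p for MAML3. At 1.5-fold, 1 (JAG2) was higher. Over all genes, 578 were lower and 416 higher. These became 144 and 47 with log2(TPM + 1), 268 and 119 at a mean count of at least 100, 335 and 209 over protein-coding genes, and 1447 and 1227 at 1.5-fold. With a pseudocount of 10, 189 were higher, with the length and GC trend removed 381 were lower, and by the ratio of deposited TPM, a setting added after seeing the data, 1017 were lower. Of the calls with both siRNAs 58.1% were lower, and this share was 75.4% with log2(TPM + 1), 73.0% by the TPM ratio and 69.3% at a mean count of at least 100. In the pathway lists, 5 lower genes became 3 (SPEN, EP300 and CREBBP) with the length and GC trend removed and 8 at 1.5-fold. They became 2 (SPEN and EP300) and the 1 higher gene (DNER) became 0 with log2(TPM + 1), where the passes of HES2, HEY2, GFI1, DLL3, DTX3, NUMBL and MIB2 with a single siRNA were lost too. Of the genes with lost passes, MAML3, DNER, HES2, HEY2, GFI1, DLL3 and DTX3 lay under 1 TPM in every library. At such levels a 2-fold change cannot show on that scale. At a mean count of at least 100 no pathway gene was higher, and at 1.5-fold 6 were. Apart from what the settings themselves remove, the cause was not tested.

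Pooled tests took si#1 and si#2 as replicates against siNC, which is assumed to vary as they do. edgeR's quasi-likelihood test called 0 genes lower and 0 higher at an adjusted p under 0.05, 0 of them Notch genes. DESeq2's Wald test called 783 lower and 402 higher. For MAML2 the log2 fold change was -1.37 by both tools, and the adjusted p was 8.41e-07 by DESeq2 and 0.127 by edgeR, so that edgeR made no call. With 1 library per condition, differences between cultures, the off-target effects of an siRNA and the knockdown cannot be told apart, and the depth limits MAML3, DNER, GFI1, DLL3 and other genes under about 100 reads.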
